A study of Mus with 6 samples.

Results

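Complex I (NADH:ubiquinone oxidoreductase) is the entry point of electrons into the respiratory chain of mitochondria. The 36 genes described here encode subunits of it that are transcribed in the nucleus. They are a fixed list of Ndufa, Ndufab, Ndufb, Ndufc, Ndufs and Ndufv genes, looked up by Ensembl ID in the count table, which holds 35304 IDs. The list does not hold every gene so named, and Ndufb1, Ndufa4, Ndufa4l2, Ndufb4b and Ndufb4c are not in it. All 36 were found and all 36 passed the filter on low counts. Total RNA had been sequenced from 4T1, a mouse mammary carcinoma cell line grown in RPMI 1640 medium with 10% fetal bovine serum. Of the 6 libraries, 3 came from cells labelled as having no treatment and 3 from cells exposed for 24 h to 10 µg/mL of isopimaric acid, a diterpene of conifer resin abbreviated IPA. The labels name no solvent control, and the work rests on 1 cell line.

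The complex has the shape of an L. Its peripheral arm reaches into the matrix, where the NADH module takes electrons from NADH and the Q module passes them along iron-sulfur clusters to ubiquinone. Its membrane arm holds the mitochondrially encoded subunits, which pump protons, and most of the accessory subunits. Of the 36 genes, 7 encode core subunits, which are conserved from bacteria and include those that carry the flavin and the iron-sulfur clusters. The other 29 encode accessory subunits, many of which are needed for assembly or stability. By place in the complex, 10 belong to the NADH module, 6 to the Q module, 9 to the proximal membrane arm and 10 to the distal membrane arm. The remaining gene, Ndufab1, encodes the mitochondrial acyl carrier protein, which is found in both arms. The series title names oxidative phosphorylation among the pathways that IPA regulates, so the comparison asks whether the mRNAs of these subunits changed with the compound.

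Untreated replicate 2 stood apart and has to be known before any fold change is read. Total counts ran from 3410411 in IPA replicate 1 to 58924711 in untreated replicate 2. Over 24935 tested IDs, the log2 CPM (counts scaled to a common library size) of untreated replicate 2 correlated with those of the other libraries at 0.779 to 0.811, while the other 5 correlated with each other at 0.922 to 0.987. Each such value is taken across genes, and genes are no independent replicates. Each comparison is therefore given over all 6 libraries and again over the 5 libraries without untreated replicate 2. Markers of epithelial and other cells were not analysed here, because no source used here pairs the other IDs with gene names. In RNA from whole cultures, fewer cells of a type and less RNA per cell cannot be told apart. The labels do not say whether the replicates were grown as separate cultures; the p-values thus reflect the spread of these samples alone, and that spread may be technical.

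No subunit was called changed with IPA by edgeR over the 6 or the 5 libraries, where at most 2.2% of tested IDs were called in a direction. Over all 6 libraries, edgeR's quasi-likelihood test called 0 of 36 subunits higher and 0 lower at a Benjamini-Hochberg adjusted p under 0.05. In that comparison 0.0% of all tested IDs were called higher and 0.0% lower. DESeq2 and limma-voom also called 0 subunits, and 3 of the 36 had no adjusted p from DESeq2. At an unadjusted p under 0.05 there was 1 subunit, Ndufv3, against 6.26% of all tested IDs. Over the 5 libraries edgeR again called 0 subunits in either direction, where 1.26% of 25592 tested IDs were called higher and 2.2% lower. A count of 0 among 36 genes is close to these shares and is no result about the subunits. On the same 5 libraries limma-voom called 1 subunit, Ndufv3, lower (adjusted p = 0.0307), where it called 3.94% of all tested IDs lower. With edgeR 2 subunits, Ndufv1 and Ndufv3, had an unadjusted p under 0.05, against 16.8% of all tested IDs.

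The 95% intervals were narrower without untreated replicate 2. Over the 5 libraries the 95% interval of the fold change lay within a 2-fold change in either direction for 36 of 36 subunits, against 51.3% of all tested IDs. Among the 9462 tested IDs whose mean level in untreated replicates 1 and 3 lay in the range of the subunits (9.48 to 121 CPM), the share was 91.8%, so the count for the subunits is near that of IDs at their level. The count was 35 of 36 with library totals in place of TMM, and 35 of 36 without IPA replicate 1 as well. In these 2 settings the shares were 52.4% and 56.7% of the IDs also tested over all 6 libraries. For IDs at the subunits' level they were 91.4% and 91.5%. Within a 1.5-fold change lay 19 of 36 intervals, against 25.2% of all tested IDs, and the other 17 reached past it. Among these, the interval of Ndufa2 reached a fold of 1.89, that of Ndufs6 1.83 and that of Ndufa1 0.514. Over all 6 libraries only 5 of 36 intervals lay within 2-fold, against 21.5% of all tested IDs and 44.6% of the 9462 at the subunits' level. Within 1.5-fold lay 1 of 36, that of Ndufs1, against 3.22% of all tested IDs. For 1.5-fold the share of IDs at the subunits' level was not computed. The intervals are not adjusted for the number of genes.

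**Figure D1:**
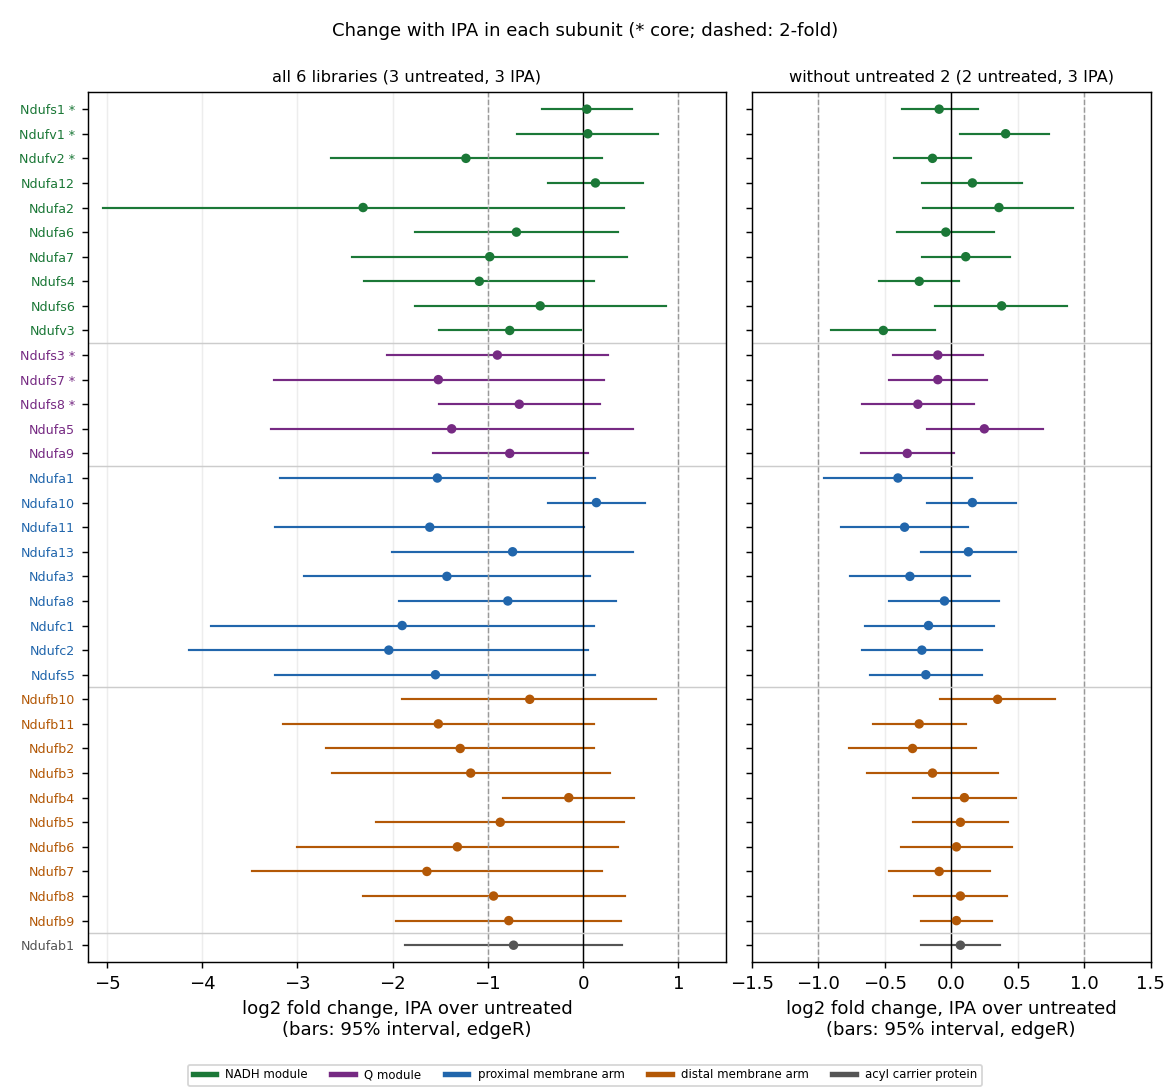
Log2 fold change of 35 of the 36 subunits with IPA (x axis) over all 6 libraries (left) and without untreated replicate 2 (right). Points are edgeR estimates, bars their 95% intervals, dashed lines a 2-fold change, colours the modules. On the right every interval lies between the dashed lines, and on the left 5 of 35 do.

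The fitted fold changes over all 6 libraries leaned low and did so through untreated replicate 2. Their median was -0.92 on the log2 scale, with 32 of 36 subunits below 0. The median over all tested IDs was -0.08, with 54.5% below 0. Over the 5 libraries the median of the subunits was -0.07, with 20 below 0 and 16 above, and that of all tested IDs was -0.04. Below 0 were 55.6% of the subunits and 54.1% of all tested IDs, so the 2 shares were close. The fold changes of the subunits then ran from -0.51 for Ndufv3 to 0.41 for Ndufv1, and their median size without regard to sign was 0.16. Over all 6 libraries a fitted change of 2-fold or more was reached by 16 of 36 subunits downward and 0 upward. The shares of all tested IDs were 16.8% and 4.72%. Over the 5 libraries it was reached by 0 in either direction, against 5.76% and 2.92%. Of the 9462 tested IDs in the subunits' range of level, 624 reached it downward and 103 upward over all 6 libraries. Over the 5 libraries these were 99 and 20, so 0 of 36 is near the share of IDs at that level. Scaling by library totals in place of TMM moved the median over all tested IDs from -0.08 to 0.13 with 6 libraries and from -0.04 to 0.06 with 5. The median of the subunits moved with it, from -0.92 to -0.56 and from -0.07 to 0.04, where 22 subunits were above 0 and 14 below. Of all tested IDs, 43.6% were below 0 over the 5 libraries with library totals.

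The share of all counts taken by the 36 genes together shows the same thing on the raw scale. It was 0.102%, 0.291% and 0.115% in untreated replicates 1, 2 and 3, and 0.123%, 0.115% and 0.108% in IPA replicates 1, 2 and 3. The group means were 0.169 ± 0.106% in untreated and 0.116 ± 0.0075% in IPA samples (SD, n = 3 each). Untreated replicate 2 lay above every other library, and the other 2 untreated libraries, at 0.108 ± 0.00944%, overlapped the IPA libraries. The mean difference of -0.0537 percentage points became 0.00716 without untreated replicate 2.

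**Figure D2:**
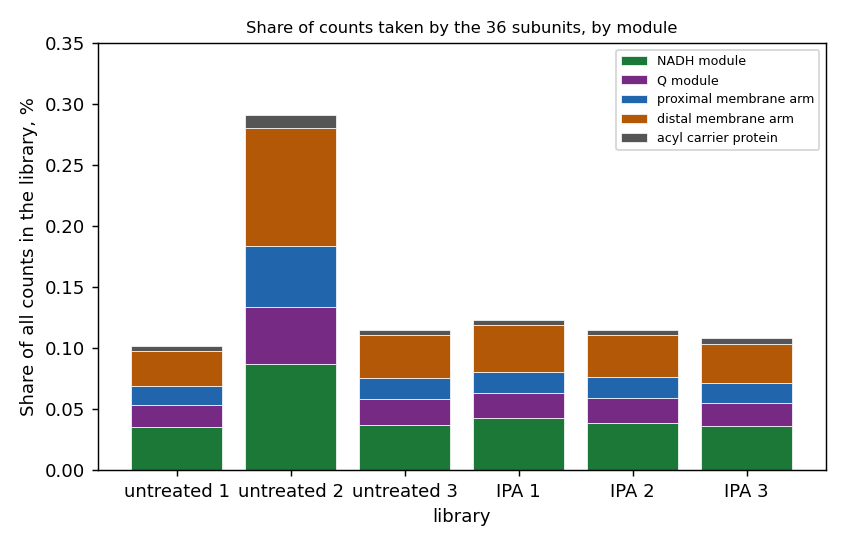
Share of all counts in each library (y axis, percent) taken by the 36 subunits, stacked by module. Untreated replicate 2 reaches 0.291%, and the other 5 libraries lie between 0.102% and 0.123%.

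In the NADH module, Ndufv1 and Ndufv3 had fitted fold changes of opposite sign over the 5 libraries, and edgeR called neither over 5 or 6 libraries. Levels are in CPM on TMM-scaled library sizes. Ndufv1 encodes the core subunit that binds NADH and the flavin, has the ID ENSMUSG00000037916 and lies at chr19:4007499-4012755 (GRCm38). It stood at 29.9, 66.7 and 41.0 CPM in untreated replicates 1, 2 and 3 and at 43.5, 50.4 and 48.8 CPM in IPA replicates 1, 2 and 3. The IPA libraries lay above untreated replicates 1 and 3 and below untreated replicate 2. Over all 6 libraries its fitted change was 0.05 ± 0.31 on the log2 scale (SE; edgeR adjusted p = 0.959) and over the 5 it was 0.41 ± 0.16 (edgeR adjusted p = 0.18), where the 95% interval of the fold ran from 1.05 to 1.67.

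Ndufv3 encodes a small accessory subunit that sits beside the flavin-bearing pair, at chr17:31520115-31531326 (ENSMUSG00000024038). It stood at 31.5, 61.4 and 39.8 CPM in the untreated and at 32.2, 25.3 and 20.8 CPM in the IPA libraries. IPA replicates 2 and 3 were below every untreated library, and IPA replicate 1, the shallowest, overlapped untreated replicate 1. The fitted change in log2 was -0.77 ± 0.32 (SE; edgeR adjusted p = 0.657) over all 6 libraries and -0.51 ± 0.19 (edgeR adjusted p = 0.15) over the 5.

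Ndufv3 was the only subunit called under any setting tried. Without untreated replicate 2 and IPA replicate 1, which leaves 2 libraries against 2, it fell by 0.63 on the log2 scale (edgeR adjusted p = 0.0434), where 3.05% of all tested IDs were called lower and 2.88% higher. With limma-voom over the 5 libraries its adjusted p was 0.0307, where 3.94% were called lower. Over the 21 alternatives its log2 fold change ran from -0.92 to -0.40 and its adjusted p from 0.0307 to 0.998, and 19 of them did not call it.

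The other core subunits of the NADH module gave no such pattern. Ndufs1, which carries several iron-sulfur clusters (ENSMUSG00000025968, chr1:63143592-63176822), stood at 75, 55.1 and 65.8 CPM in untreated and 65.9, 71.5 and 64.3 CPM in IPA libraries. It was the only subunit with its lowest level in untreated replicate 2. Its log2 fold change was 0.04 ± 0.20 over all 6 libraries and -0.09 ± 0.14 over the 5 (SE; edgeR adjusted p = 0.946 and 0.841). Ndufv2, the partner of Ndufv1 with an iron-sulfur cluster of its own (ENSMUSG00000024099, chr17:66078795-66101559), stood at 57.8, 249 and 53.3 CPM in untreated and 53.8, 48.3 and 51.8 CPM in IPA libraries. Without the value of 249 CPM the 5 libraries lay close together, and the log2 fold change went from -1.23 ± 0.60 to -0.14 ± 0.14 (edgeR adjusted p = 0.657 and 0.692).

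Among the 7 accessory subunits of that module, Ndufa2 showed the greatest dependence on 1 library. Ndufa2 (ENSMUSG00000014294), an accessory subunit with a thioredoxin-like fold, stood at 9.17, 231 and 16.5 CPM in untreated and 23.7, 15.0 and 13.9 CPM in IPA libraries. Its fitted log2 fold change was the lowest of the 36 over all 6 libraries, at -2.31 ± 1.16, and was 0.36 ± 0.27 over the 5 (SE; edgeR adjusted p = 0.657 and 0.579). Without IPA replicate 1 as well it was 0.16 (edgeR adjusted p = 0.773). Ndufs4 (ENSMUSG00000021764), mutated in some inherited complex I deficiencies and used as a knockout model of Leigh syndrome in mice, stood at 55.4, 178 and 46.9 CPM in untreated and 43.8, 44.4 and 43.7 CPM in IPA libraries. All IPA libraries were below all untreated libraries, and the log2 fold change over the 5 was -0.24 ± 0.14 (edgeR adjusted p = 0.441). Ndufs6, a subunit with a zinc-binding site, stood at 11.5, 41.6 and 11.9 CPM in untreated and 21.6, 14.0 and 12.6 CPM in IPA libraries. Its log2 fold change over the 5 libraries, 0.38 ± 0.24, was 0.19 without IPA replicate 1, which held 82 of its reads.

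Ndufa12, a paralogue of the assembly factor Ndufaf2, was among the few that did not depart in untreated replicate 2. It stood at 20.0, 21.8 and 19.1 CPM in untreated and 23.5, 21.3 and 22.1 CPM in IPA libraries, with log2 fold changes of 0.13 ± 0.21 and 0.16 ± 0.18 (edgeR adjusted p = 0.838 and 0.754). Ndufa6 and Ndufa7, at the junction of the NADH and Q modules, overlapped between groups in both comparisons.

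The 6 subunits of the Q module had a median log2 fold change of -0.83 over all 6 libraries, with 6 below 0, and of -0.10 over the 5, with 4 below 0. With library totals the median over the 5 was 0.0055, with 2 below 0. Ndufs7, which carries the last iron-sulfur cluster before ubiquinone (ENSMUSG00000020153, chr10:80249105-80256794), stood at 26.6, 204 and 39.7 CPM in untreated and 30.6, 33.9 and 29.8 CPM in IPA libraries. Its log2 fold change went from -1.52 ± 0.73 over all 6 libraries to -0.10 ± 0.18 over the 5 (SE; edgeR adjusted p = 0.657 and 0.86). The IPA levels lay inside the range of untreated replicates 1 and 3.

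Ndufs3, a scaffold of the Q module (ENSMUSG00000005510, chr2:90894627-90904721), stood at 26.5, 92.3 and 29.7 CPM in untreated and 24.8, 27.0 and 27.7 CPM in IPA libraries. With 5 libraries its change was -0.10 ± 0.16 in log2 (SE; edgeR adjusted p = 0.851). Ndufs8, a ferredoxin-like subunit with a pair of iron-sulfur clusters (ENSMUSG00000059734, chr19:3908863-3912774), stood at 14.5, 33.2 and 17.2 CPM in untreated and 14.2, 14.1 and 12.6 CPM in IPA libraries. Its IPA libraries were all below its untreated libraries, and the log2 fold change over the 5 was -0.25 ± 0.20 (edgeR adjusted p = 0.614). Of the 2 accessory subunits, Ndufa9, which binds a nucleotide cofactor and anchors the peripheral to the membrane arm, stood at 34.2, 73.0 and 36.7 CPM in untreated and 22.7, 30.5 and 31.2 CPM in IPA libraries. Its log2 fold change was -0.77 ± 0.35 and -0.33 ± 0.17 (edgeR adjusted p = 0.657 and 0.325). Ndufa5 stood at 12.1, 90.9 and 12 CPM in untreated and 16.4, 14.7 and 13.2 CPM in IPA libraries, and its log2 fold change turned from -1.38 ± 0.80 to 0.25 ± 0.21 (edgeR adjusted p = 0.657 and 0.625).

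The 9 subunits of the proximal membrane arm had the lowest median of the modules over the 5 libraries, -0.19 on the log2 scale with 7 of 9 below 0. With library totals that median was -0.09, with 6 of 9 below 0. Ndufa1, on the X chromosome and needed for assembly of the membrane arm, had the lowest fold change among them, -0.40 ± 0.27 (SE; edgeR adjusted p = 0.513). It stood at 8.49, 52.1 and 12.6 CPM in untreated and 11.1, 8.68 and 6.02 CPM in IPA libraries, so its groups overlapped. Ndufa11, a membrane subunit at the contact with complex III in supercomplexes, stood at 11.3, 56.5 and 10.3 CPM in untreated and 7.91, 9.80 and 7.75 CPM in IPA libraries. Ndufa3, a small membrane-spanning subunit, stood at 11.6, 60.7 and 14.7 CPM in untreated and 10.5, 11 and 10.6 CPM in IPA libraries. Both lay lower in every IPA than in every untreated library, with log2 fold changes over the 5 libraries of -0.35 ± 0.23 and -0.31 ± 0.22 (edgeR adjusted p = 0.49 and 0.523).

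Ndufc1 and Ndufc2, small subunits next to the proximal proton-pumping subunits, were next to Ndufa2 in the order of fold changes over all 6 libraries, again through 1 library. Ndufc2 stood at 12.6, 127 and 15.8 CPM in untreated and 14.2, 12.6 and 11 CPM in IPA libraries, and its log2 fold change went from -2.04 ± 0.89 to -0.22 ± 0.22 (SE; edgeR adjusted p = 0.657 and 0.692). Ndufc1 stood at 9.22, 77.8 and 9.73 CPM in untreated and 9.49, 9.0 and 7.63 CPM in IPA libraries, and went from -1.90 ± 0.85 to -0.17 ± 0.23 (edgeR adjusted p = 0.657 and 0.81). Ndufa10 (ENSMUSG00000026260), related to nucleoside kinases, behaved differently. It stood at 37.9, 37.7 and 35 CPM in untreated and 32.2, 44.5 and 44.9 CPM in IPA libraries, so untreated replicate 2 matched its group and IPA replicate 1 was the lowest of the 6. The log2 fold change of Ndufa10 was 0.14 ± 0.22 and 0.16 ± 0.16 (edgeR adjusted p = 0.829 and 0.718). Ndufa8 and Ndufs5, intermembrane-space subunits with paired cysteine motifs, and Ndufa13 (also known as GRIM-19) overlapped between groups in both comparisons.

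The 10 subunits of the distal membrane arm were split in direction over the 5 libraries, with 6 above and 4 below 0 and a median of 0.04 on the log2 scale. Ndufb10 (ENSMUSG00000040048), a subunit with disulfide bonds in the intermembrane space, stood at 14.3, 56.6 and 15.2 CPM in untreated and 24.3, 17.4 and 17.0 CPM in IPA libraries. It lay higher in every IPA library than in untreated replicates 1 and 3, by 0.35 ± 0.21 in the log2 of the fitted fold (SE; edgeR adjusted p = 0.433). Without IPA replicate 1 as well, which held 92 of its reads, that value was 0.23 (edgeR adjusted p = 0.516). Ndufb7, another subunit with paired cysteines, stood at 21.4, 173 and 28.2 CPM in untreated and 25.6, 24.4 and 21.6 CPM in IPA libraries, and its log2 fold change went from -1.64 ± 0.78 to -0.09 ± 0.18 (edgeR adjusted p = 0.657 and 0.876). Ndufb4 stood at 19.4, 34.4 and 21.6 CPM in untreated and 25.8, 19.9 and 22.3 CPM in IPA libraries, with log2 fold changes of -0.15 ± 0.29 and 0.10 ± 0.18 (edgeR adjusted p = 0.861 and 0.866). The other 7, Ndufb2, Ndufb3, Ndufb5, Ndufb6, Ndufb8, Ndufb9 and the X-linked Ndufb11, overlapped between untreated replicates 1 and 3 and the IPA libraries.

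Ndufab1, whose product also serves mitochondrial fatty acid synthesis, stood at 40.2, 134 and 41.8 CPM in untreated and 41.7, 43.5 and 45.4 CPM in IPA libraries. It varied least of the 36 over the 5 libraries, with a coefficient of variation of 4.7%.

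**Figure D3:**
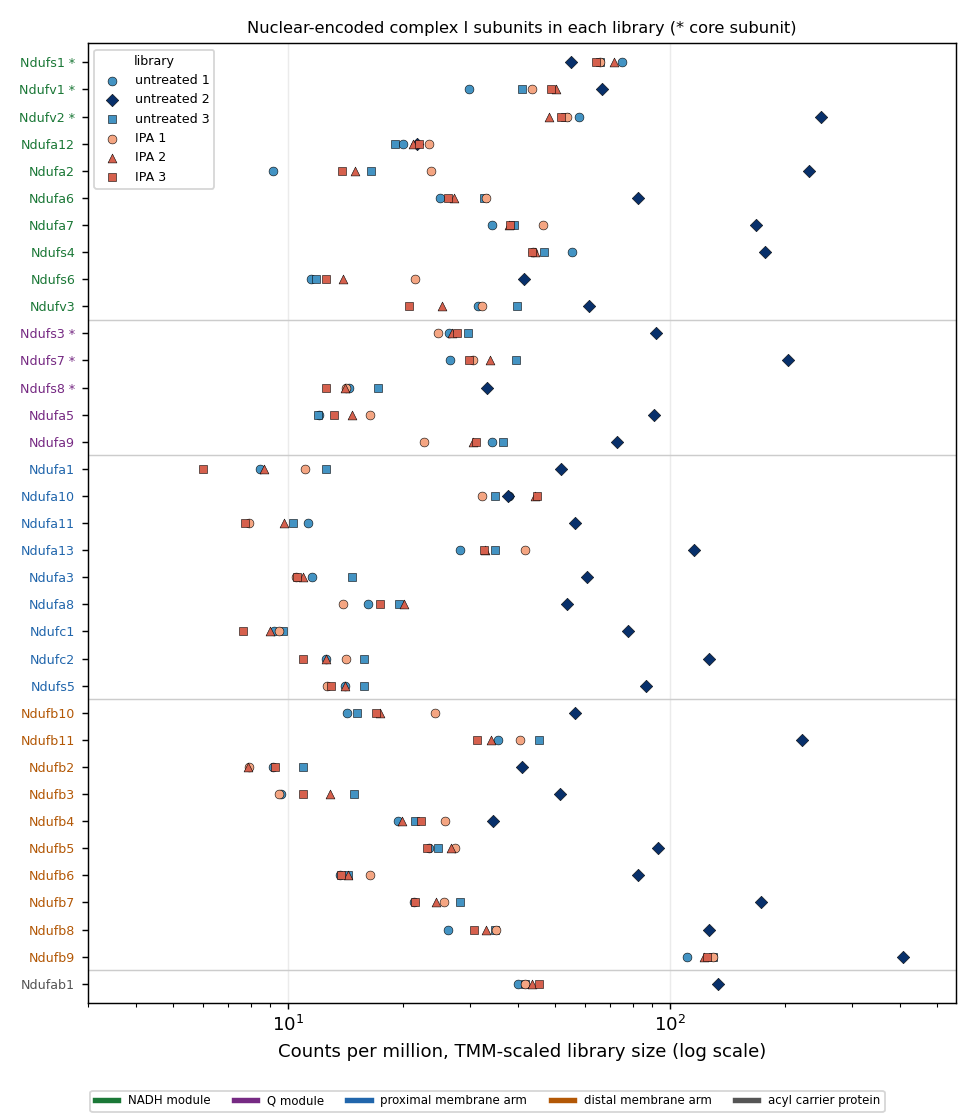
Level of 35 of the 36 subunits in each of the 6 libraries (x axis, CPM on TMM-scaled library sizes, log scale), with rows grouped and coloured by module and core subunits starred. Untreated replicate 2 (dark diamonds) is the highest library for all of those shown except Ndufa10, Ndufa12 and Ndufs1. Among the other 5 libraries the highest exceeds the lowest by 1.13 to 2.59 times.

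Separation of the groups, counted over subunits, was near that of all IDs or below it. Over all 6 libraries, 0 subunits lay higher in every IPA than in every untreated library, against 9.49% of all tested IDs, and 5 of 36 lay lower, against 10.8%. The 5 were Ndufa3, Ndufa9, Ndufa11, Ndufs4 and Ndufs8. Untreated replicate 2 was the highest library for 33 of the 36 subunits, which thus could not lie higher in every IPA library. Levels kept the TMM scaling of all 6 libraries when untreated replicate 2 was left out. Over the 5 libraries, 5 lay higher (Ndufa5, Ndufa12, Ndufb10, Ndufs6 and Ndufv1), against 14.0% of all tested IDs. The same 5 as before lay lower, against 18.2%. Leaving out untreated replicate 2 could not remove any of them, because it was the highest library for each. Neither share of the subunits, 5 of 36 in each direction, stands above its background.

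The spread of the subunits among the 5 libraries is a description without a background, since it was not computed for other IDs. The coefficient of variation over these libraries, both groups together, had a median of 13.1% and ran from 4.7% to 33.7%, and the highest library exceeded the lowest by 1.13 to 2.59 times. The 7 core subunits had a median of 6.85% and the 29 accessory subunits 13.7%, although Ndufv1, a core subunit, reached 19.0%. The part of count level in this contrast was not tested. The most variable were Ndufa2 at 33.7%, Ndufs6 at 29.3% and Ndufa1 at 27.2%. Counting error adds to this spread in IPA replicate 1, where the lowest subunit, Ndufa11, had 30 counts. Across the 36 genes, log2 CPM correlated between any 2 of the 5 libraries at a Pearson's r of 0.916 to 0.991, as a description over genes that share libraries.

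Untreated replicate 2 held most subunits at several times their level in the other untreated libraries. With only 1 such library this is a description with no test. Its level was above the mean of untreated replicates 1 and 3 for 35 of 36 subunits on TMM-scaled sizes. On that scale it was above for 11644 of the 24935 tested IDs. On library totals it was above for 33 subunits, and Ndufa10 and Ndufa12 joined Ndufs1 below that mean. The ratio had a median of 3.86 and ran from 0.782 for Ndufs1 to 18 for Ndufa2. On library totals the median was 2.85 and the range 0.577 to 13.3. On TMM-scaled sizes, 29 of 36 subunits were at least 2-fold higher, against 24.7% of all tested IDs. At least 2-fold lower were 0 subunits, against 7606 of the 24935 tested IDs. Over all IDs this library thus departed widely in both directions. Over all tested IDs the median ratio was 0.912 on TMM-scaled sizes, and it was not computed on library totals.

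The subunits did not depart to the same degree in that library. By module the median ratio was 4.93 in the proximal membrane arm, 4.12 in the distal membrane arm, 3.15 in the NADH module and 2.62 in the Q module. For core subunits it was 2.09 and for accessory subunits 4.08. The mRNA levels of the 36 genes therefore stood in other proportions to each other: their log2 CPM in untreated replicate 2 correlated with the other 5 libraries at a Pearson's r of only 0.465 to 0.549. The lowest count of any subunit in that library was 966, for Ndufa12.

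Among the 36 subunits the ratio was larger for genes that span less of the genome. The relation was not computed for other IDs, so it has no background. Spans were taken from RefSeq's annotation of GRCm38.p6, in which all 36 symbols were found, on 15 chromosomes. The 18 genes with the shortest spans, 2256 to 7798 bp, had a median ratio of 4.78, and the 18 with the longest, 8396 to 100300 bp, had 3.38. Spearman's rho between span and ratio was -0.49 over the 36 genes and Pearson's r, on log scales, was -0.52, as a description in which all points share the same libraries. Ndufa2, with the shortest span, had the highest ratio, and Ndufs1, with a span of 33231 bp, the lowest, while Ndufs4 departs from the trend, with the longest span and a ratio of 3.48. Transcript length and RNA quality were not tested, and neither was their part in the state of untreated replicate 2.

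**Figure D4:**
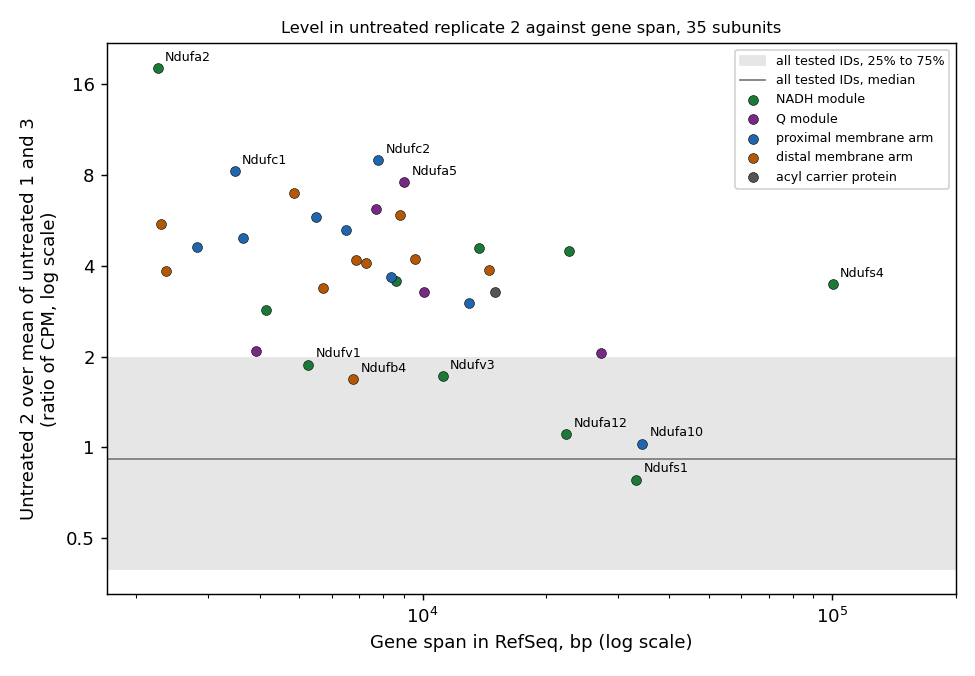
Ratio of the level in untreated replicate 2 to the mean of untreated replicates 1 and 3 (y axis, log scale) against gene span in bp (x axis, log scale) for 35 of the 36 subunits, coloured by module. The grey band spans all tested IDs from the 25% to the 75% quantile around their median of 0.912, and 29 of the 35 subunits lie at a ratio of 2 or more.

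Some counts may hold reads of other genes. In RefSeq the spans of 10 of the 36 subunit genes overlap another annotated gene, among them Ndufa2 (with Tmco6), Ndufv2 (with Ankrd12), Ndufa13 (with Tssk6) and Ndufb11 (with Rbm10). How the counting treated strand is not given in the sources used here, so reads of such pairs may not be told apart. RefSeq also lists 7 pseudogenes or related genes named after 6 of the subunits (Ndufa11, Ndufa12, Ndufab1, Ndufb4, Ndufs5 and Ndufs6), whose counts are uncertain for that reason. The number of subunits with counts within 2% of those of another ID in every library was 0.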

How the data were processed

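The authors deposited raw read counts per Ensembl gene ID for 6 samples, per the file headers. Builds GRCm38 and mm10 are named in the submitters' processing notes. For the aligner, counter, annotation and the treatment of strand and multiple mapping, the entry is: not given in the sources used here. Samples were grouped by title. The 36 members were paired with symbols by the list that defines them, and 0 of 49997 rows of the RefSeq table carry an Ensembl ID, so 6 other lists (55 genes: assembly factors, mitochondrially encoded subunits, related genes, regulators, cell markers) were not analysed here. Members, lists and tests were chosen with earlier results of these data known.

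Counts were fitted over all IDs with edgeR 4.0.16 in R 4.3.3 (robust quasi-likelihood F-test, TMM, filterByExpr). P-values were adjusted by Benjamini-Hochberg over all tested IDs. Standard errors are the log2 fold change divided by the square root of F, and intervals use the t distribution with the fit's degrees of freedom. CPM values, and the separation and spread taken from them, keep the TMM scaling of all 6 libraries throughout. The edgeR fits over the 5 libraries computed TMM factors anew without untreated replicate 2. Ratios over all IDs add 0.5 counts. Per-library values are given for core subunits, the 5 highest and 5 lowest fold changes over 6 libraries, and members called; Ndufv3, Ndufa1, Ndufa3, Ndufa5, Ndufa9, Ndufab1, Ndufb10, Ndufs4 and Ndufs6 were added after their values were seen. The values of 1 member are not reported here, though it stays in the counts and medians. Alternatives were DESeq2 1.42.0, limma 3.58.1 (voom, with and without sample weights), other scalings and filters, a replicate block and samples left out. The procedure was run on simulated counts, drawn for all libraries from a shared mean profile apart from the changes set. No simulated library departed as a whole, so the run cannot show how the fits treat a library like untreated replicate 2. The level of 3 counts was 0.0555 to 0.791 CPM, a floor for counting error only.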

Additional observations from a re-analysis of the deposited data

How the results depend on the processing

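No subunit was called under 19 of 21 alternatives; Ndufv3 was the 1 called lower without untreated replicate 2 and IPA replicate 1 and with limma-voom without untreated replicate 2, and 0 were called higher under any. With samples left out (each in turn, and untreated replicate 2 with IPA replicate 1), 0 to 1 subunits were called lower, 0 to 719 IDs higher and 0 to 763 lower; without untreated replicate 2 alone the counts of IDs were 322 and 564. Over all 6 libraries the counts of IDs higher and lower were 22 and 63 with DESeq2, 492 and 755 with limma-voom with sample quality weights, and 1 and 0 with library totals and with no filter. Without untreated replicate 2 they were 634 and 660 with DESeq2, 660 and 1009 with limma-voom, 691 and 327 with library totals, 364 and 481 with RLE factors, and 309 and 581 with upper-quartile factors. The cause of these differences beyond the library left out was not tested.

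The median log2 fold change of the subunits ran from -1.17 to -0.04 with samples left out, and every value above -0.5 came without untreated replicate 2 or with sample quality weights (-0.05). Without that library it was -0.07, and -0.04 with DESeq2, -0.08 with limma-voom, 0.04 with library totals, -0.04 with RLE factors and -0.08 with upper-quartile factors. The difference in share of counts ran from -0.0874 to 0.00716 percentage points with 1 sample left out.

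Of 462 values for 22 subunits under the 21 alternatives, 53 had the opposite sign to the comparison of all 6 libraries, and none of these passed the test. With samples left out the log2 fold changes ran from -0.09 to 0.21 for Ndufs1, -0.10 to 0.48 for Ndufv1, -0.24 to 0.10 for Ndufb4, -2.76 to 0.36 for Ndufa2, -0.71 to 0.38 for Ndufs6, -0.84 to 0.35 for Ndufb10 and -1.77 to 0.25 for Ndufa5. Without untreated replicate 2, the values of Ndufs1, Ndufb4, Ndufa2, Ndufs6, Ndufb10 and Ndufa5 were -0.06, 0.12, 0.40, 0.40, 0.37 and 0.27 with DESeq2; -0.07, 0.02, 0.14, 0.21, 0.23 and 0.21 with limma-voom; -0.06, 0.13, 0.38, 0.40, 0.38 and 0.28 with RLE factors; and -0.10, 0.09, 0.35, 0.37, 0.34 and 0.24 with upper-quartile factors. With library totals the last 5 of these gave 0.21, 0.46, 0.48, 0.46 and 0.36, while Ndufs3, Ndufs7 and Ndufb7 gave 0.0065, 0.0044 and 0.01. With sample quality weights Ndufs1, Ndufa2, Ndufs6, Ndufb10 and Ndufa5 gave -0.02, 0.12, 0.21, 0.22 and 0.20. Over 6 libraries, Ndufb4 gave 0.12 with library totals and Ndufv1 gave -0.0033 with the filter of 1 CPM.

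With the replicate block the counts stayed at 0 and the median of the subunits was -0.64. Same-numbered samples had deviations that correlated at -0.0771, 0.0183 and 0.161, so the numbers were not taken to pair the samples. The shallowest library, IPA replicate 1, has the highest floor: 0.791 CPM for 3 counts.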
